A study of Mus musculus with 2 samples.

Results

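Pleiotrophin, midkine and the syndecans form a small group of secreted growth factors and cell-surface proteoglycans, measured here as 6 genes (Ptn, Mdk, Sdc1, Sdc2, Sdc3 and Sdc4) of the 33696 in the deposited counts. The genes were chosen by family name together with their measured levels in these libraries, so every level and ratio below is a description and none was tested. Cells came from PyMT-M tumors, a macrophage-rich (High-MAC) mammary tumor model, and from PyMT-N tumors, a macrophage-poor (Low-MAC) one. Both are sublines of MMTV-PyMT, in which the mammary tumor virus promoter drives the polyoma middle T oncogene, and both were grown in the fourth mammary fat pad of female C57BL/6 hosts that were 6 to 8 weeks old at transplantation. Dissociated tumors were depleted of CD45+ and Ter119+ cells, enriched with antibodies to CD31 and CD144 and sorted for both, and 3 tumors were pooled into 1 10x Genomics 3′ library per model. With 1 library per model there is no replicate check of any difference, and no p-value was computed.

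Pleiotrophin (Ptn) and midkine (Mdk) are the 2 members of a family of small heparin-binding growth factors, known for roles in neurite outgrowth, angiogenesis and tumor growth. Syndecans are single-pass membrane proteins whose outer part carries heparan sulfate chains, to which heparin-binding factors attach, and whose short inner tail binds scaffold proteins. Syndecan-1 is typical of epithelia and plasma cells, syndecan-2 of mesenchymal cells, syndecan-3 of neural tissue, where it was described as a pleiotrophin receptor, and syndecan-4 of focal adhesions in many cell types.

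The syndecans are alike in the last codons of the inner tail, the only part compared here. The last 60 coding bases of each, stop codon included, are shown from GENCODE M21 transcripts (GRCm38). Their last codons encode the scaffold-binding end shared by the family. Capitals mark the 14 positions that hold the same base in all 4 genes when the stretches are aligned from the stop codon without gaps.
Sdc1: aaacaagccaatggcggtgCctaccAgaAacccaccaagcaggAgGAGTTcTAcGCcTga
Sdc2: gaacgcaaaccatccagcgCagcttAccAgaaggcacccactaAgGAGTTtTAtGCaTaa
Sdc3: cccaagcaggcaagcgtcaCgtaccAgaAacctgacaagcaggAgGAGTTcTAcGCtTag
Sdc4: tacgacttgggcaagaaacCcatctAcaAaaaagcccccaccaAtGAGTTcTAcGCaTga
Most of the shared positions lie in the last codons. Over the 60 bases Sdc1 and Sdc3 were identical at 63.3% of positions and Sdc2 and Sdc4 at 51.7%, while the other pairs ranged from 36.7% for Sdc2 and Sdc3 to 43.3%. The coding sequences predict 311 residues for syndecan-1, 202 for syndecan-2, 442 for syndecan-3 and 198 for syndecan-4, against 168 for pleiotrophin and 140 for midkine.

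Ptn and Sdc3 held most UMIs of these genes in blood endothelial cells, so their promoters are shown for context. The windows are the 250 bases before the start in RefSeq on GRCm38.p6, the build of the reference and not that of the counts, and capitals mark GGGCGG on either strand, the core of the GC box.
Ptn, chr6:36810180-36810429, minus strand: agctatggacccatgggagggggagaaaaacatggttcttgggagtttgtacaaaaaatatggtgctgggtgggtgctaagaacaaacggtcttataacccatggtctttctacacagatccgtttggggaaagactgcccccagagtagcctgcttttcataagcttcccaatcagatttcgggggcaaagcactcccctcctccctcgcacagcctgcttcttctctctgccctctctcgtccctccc
Sdc3, chr4:130792287-130792536, plus strand: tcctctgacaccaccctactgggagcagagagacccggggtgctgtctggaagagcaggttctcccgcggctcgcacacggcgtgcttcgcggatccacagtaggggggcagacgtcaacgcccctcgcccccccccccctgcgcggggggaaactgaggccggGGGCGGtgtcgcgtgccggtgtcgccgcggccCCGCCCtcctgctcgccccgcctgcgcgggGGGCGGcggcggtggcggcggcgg
The Ptn window held 0 GC boxes at a GC content of 52.0%, and the Sdc3 window held 3 at 76.4%. The windows of Sdc1 and Sdc4 held 3 and 4 GC boxes. Of 27025 promoter windows of this length, 32.9% held at least 1. These counts describe letters in 1 window per gene.

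Cells with at least 200 detected genes and at most 10% mitochondrial UMIs were kept, 6719 of 7821 barcodes in PyMT-M and 5607 of 6974 in PyMT-N, with 139729636 and 114669155 UMIs. UMIs are unique molecules counted at the 3′ end, so levels in CPM, the UMIs of a gene scaled to a common total per class, can be compared between genes without a length correction. Blood endothelial cells had at least 5 UMIs over Pecam1, Flt1, Emcn and Kdr, at most 1 over Krt8, Krt18 and Rhox5 and 0 of Prox1. They numbered 588 in PyMT-M and 1065 in PyMT-N. Lymphatic cells (at least 3 UMIs over Prox1, Mmrn1 and Reln) numbered 20 and 207, tumor cells (at least 3 over Krt8, Krt18 and Rhox5 and 0 of Pecam1 and Flt1) 4902 and 3306, fibroblasts (at least 3000 CPM of Col3a1) 58 and 63, and Ptprc+ cells (at least 1 UMI) 488 and 357. Tumor cells were therefore the largest class, at 73.0% and 59.0% of kept cells, although all cells had passed the CD31 and CD144 sort. The median depth of blood endothelial cells was 5206.5 UMIs for PyMT-M, against 12696 for PyMT-N, and shares of cells with a UMI are also given at a common depth. A cell could meet more than 1 rule, as 61 PyMT-M and 90 PyMT-N cells did, 56 of the latter as blood endothelial and Ptprc+ at once. The libraries shared 20 cell barcodes, 12 of them among kept cells.

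Genes outside the rules were used to check the classes. Endothelial markers (Cdh5, Esam, Tie1, Cldn5, Tek, Egfl7, Erg, Vwf and Cd34) summed to 5287 CPM in PyMT-M and 5813 CPM in PyMT-N blood endothelial cells, against 40.6 and 12.7 CPM in tumor cells. The 4 lymphatic markers, Lyve1, Pdpn, Flt4 and Ccl21a, summed to 3404 and 12997 CPM in lymphatic cells, and 6 fibroblast markers to 16938 and 22623 CPM in fibroblasts. Of 10 epithelial markers, Krt19 and Cldn3 were at 0 in PyMT-M tumor cells and Esrp1 in PyMT-N tumor cells, and the list summed to 220.7 and 34.5 CPM, while mural markers in the same cells summed to 39.2 and 264 CPM. The PyMT-N tumor class thus held little of the epithelial list, and it is called tumor by its rule. Immune markers summed to 2128 and 1990 CPM in Ptprc+ cells. All intervals are exact 95% intervals and cover counting error only.

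Among the ligands, Ptn was the member with the largest difference in blood endothelial cells. In PyMT-M it had 29 UMIs in 17 of 588 cells, a level of 8.80 CPM (5.89 to 12.6). In PyMT-N it had 3041 UMIs in 362 of 1065 cells, a level of 204 CPM (197 to 211). The PyMT-N level was 23.2-fold higher (16.1 to 34.7), a log2 ratio, taken throughout as PyMT-M divided by PyMT-N, of -4.54 (-5.12 to -4.01), which placed Ptn 14th from the lowest of the 8544 genes that reached 200 UMIs in the libraries combined. Of these ranked genes 4.18% were over 2-fold lower in PyMT-M and 2.55% over 2-fold higher, and their median log2 ratio was -0.0066. In this class mural, lymphatic and immune markers moved in the same direction, and epithelial and fibroblast markers in the other. The 10 epithelial markers summed to 19.4 CPM in PyMT-M and 1.81 CPM in PyMT-N, and the 6 fibroblast markers to 34.0 and 4.29 CPM. The 6 mural markers summed to 128 CPM in PyMT-M, against 265 CPM in PyMT-N, with 5.10% and 51.6% of cells holding 2 or more UMIs, and the 4 lymphatic markers to 63.4 and 157 CPM, with 5.27% and 40.5% of cells, and none of either list was at 0. Without the cells that held 2 or more UMIs of tumor, fibroblast, mural or immune markers, which left 536 and 452, the Ptn ratio was -4.35. The part of lymphatic transcripts was not tested.

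Cells with a Ptn UMI made up 2.89% of blood endothelial cells in PyMT-M (1.69 to 4.59%), against 34.0% in PyMT-N (31.1 to 36.9%). With each cell thinned to 5000 UMIs, which left out 282 PyMT-M and 46 PyMT-N cells, the shares were 2.61% of 306 cells and 24.8% of 1019 cells. In PyMT-N, 4.60% of tumor cells had a Ptn UMI at a median depth of 20757.5 UMIs, and 3.08% of Ptprc+ cells at 7581, both far under the blood endothelial share. Ptn was uneven among PyMT-N cells. The highest cell held 95 UMIs, 88 cells held 10 or more, and the tenth of cells with most Ptn held 80.2% of its UMIs. In PyMT-M no blood endothelial cell held more than 4. Because the UMIs cluster in few cells, a counting interval is narrower than the spread between cells would give.

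**Figure D1:**
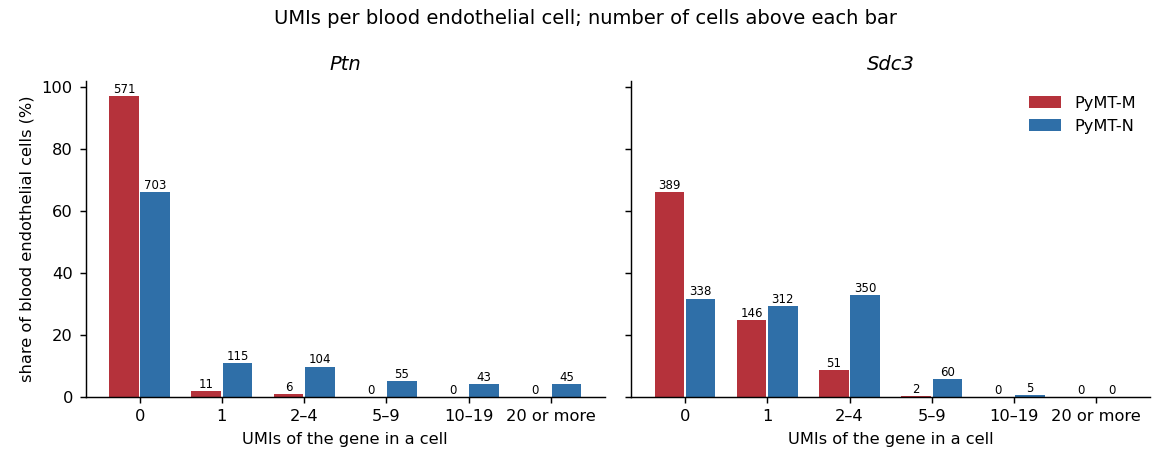
Share of blood endothelial cells (percent, vertical axis) by the number of UMIs of Ptn or Sdc3 in a cell (horizontal axis), with the number of cells above each bar, in PyMT-M (red, 588 cells) and PyMT-N (blue, 1065 cells). For Ptn, 45 PyMT-N cells held 20 or more UMIs and the PyMT-M cells stopped at 4, whereas for Sdc3 cells with 1 UMI were 24.8% and 29.3% of the libraries.

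The order of Ptn levels across classes differed between the libraries. In PyMT-N the order was blood endothelial cells at 204 CPM, fibroblasts at 45.1 CPM (35.1 to 57.0), Ptprc+ cells at 10.9 CPM (8.01 to 14.4), tumor cells at 8.03 CPM (7.41 to 8.70) and lymphatic cells at 4.94 CPM (2.70 to 8.28). The intervals of neighbours among the last 3 overlapped. In PyMT-M the order was lymphatic cells at 281 CPM (182 to 415), fibroblasts at 29.8 CPM (17.0 to 48.4), blood endothelial cells at 8.80 CPM and tumor cells at 0.033 CPM, with 0 UMIs in Ptprc+ cells. The PyMT-M lymphatic level rested on 25 UMIs in 5 of 20 cells, and its log2 ratio over PyMT-N, where 14 UMIs lay in 10 of 207 cells, was 5.83 (4.83 to 6.89), in the direction opposite to blood endothelial cells. Immune markers were at 0 in the 20 PyMT-M lymphatic cells, as was Vwf among the endothelial markers, and Ptn was at 346 CPM in the 19 of them with at most 1 keratin or Rhox5 UMI. The 6 fibroblast markers summed to 213 CPM in the 20 cells, from 19 UMIs, and 4 cells held 2 or more. Of the 20 cells, 16 held 2 or more UMIs of the lymphatic markers.

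In tumor cells Ptn had 4 UMIs over 4902 PyMT-M cells and 607 over 3306 PyMT-N cells, a log2 ratio of -7.92 (-9.80 to -6.56). The PyMT-N tumor level was 25.4-fold under that of blood endothelial cells in the same library. In fibroblasts the log2 ratio was -0.60 (-1.48 to 0.20), an interval that includes 0. In Ptprc+ cells PyMT-M held 0 UMIs, and the exact interval of its level reached up to 1.44 CPM. Set against 3 counts over the class, which is 1.17 CPM, the PyMT-N level of 10.9 CPM was 9.27-fold higher. The exact interval of the ratio had a lower limit of 7.25-fold. Of the 48 PyMT-N UMIs, 39 lay in the 56 cells that were also blood endothelial. The 278 cells that met the Ptprc rule alone held 3, a level of 1.18 CPM. That level lay under the upper limit of the PyMT-M class, so the fold rested on the overlapping cells.

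Mdk, the other ligand, was a fibroblast transcript in these libraries. Fibroblasts held 24 UMIs in 16 of 58 cells in PyMT-M, 44.7 CPM (28.6 to 66.5), and 177 UMIs in 35 of 63 cells in PyMT-N, 116 CPM (99.2 to 134). The log2 ratio was -1.37 (-2.05 to -0.75), where 11.7% of the 1760 genes ranked in fibroblasts were over 2-fold lower in PyMT-M and 4.32% over 2-fold higher, with a median of -0.10. With at most 1 keratin or Rhox5 UMI the Mdk ratio was -0.95 (-1.64 to -0.32), under 2-fold. With at least 10000 CPM of Col3a1 it was -1.11 (-1.86 to -0.43), past 2-fold. Elsewhere Mdk was near the floor. Blood endothelial cells held 2 PyMT-M and 23 PyMT-N UMIs, each in a separate cell, at 0.607 and 1.54 CPM with a log2 ratio of -1.35 (-4.48 to 0.67). Tumor cells held 21 and 13, at 0.174 and 0.172 CPM. Lymphatic cells held 0 and 4, all in 1 cell, and Ptprc+ cells 0 and 8, and no fold is given for either. A difference in Mdk outside fibroblasts was not detectable at this depth. In PyMT-N the intervals of Ptprc+, blood endothelial and lymphatic cells overlapped, and in PyMT-M those of blood endothelial and tumor cells did.

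**Figure D2:**
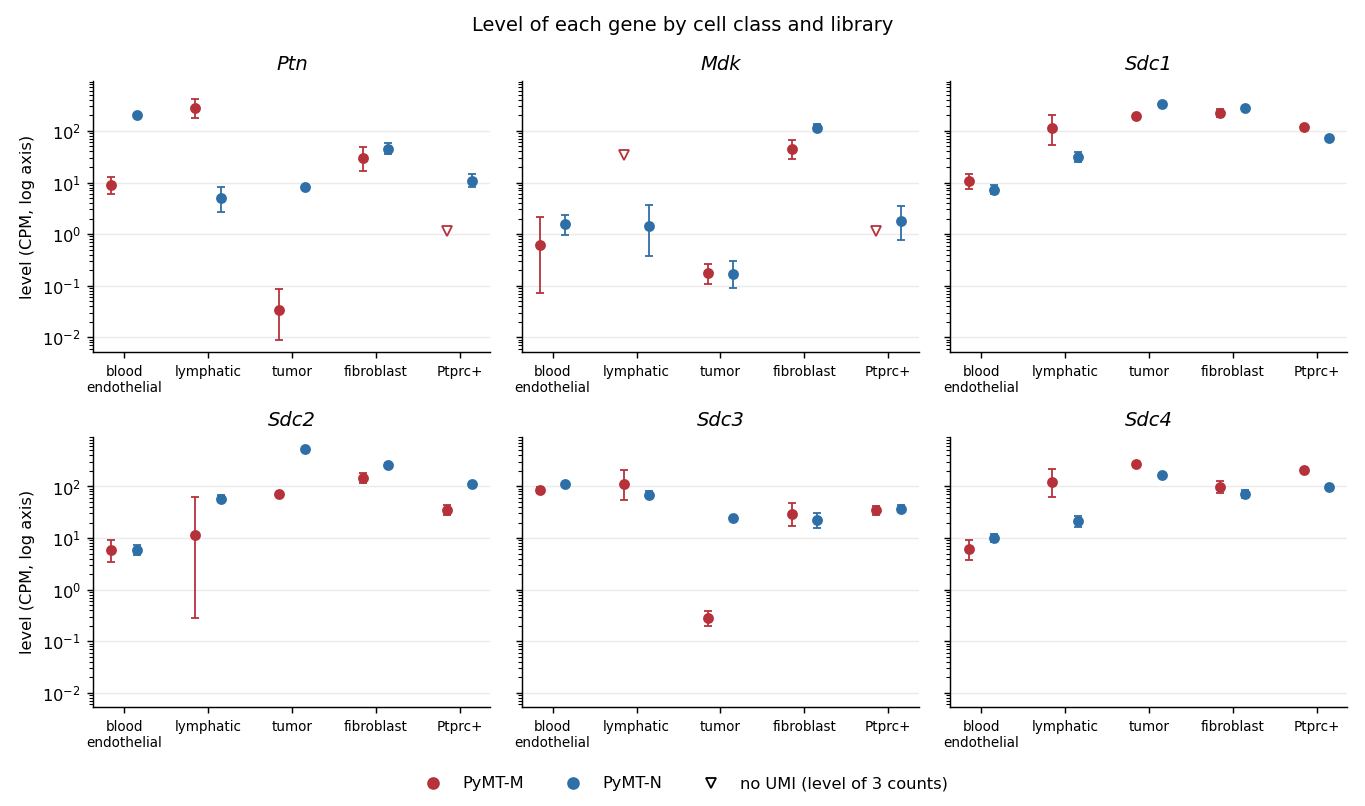
Level of each gene (CPM, log axis) in 5 cell classes of PyMT-M (red) and PyMT-N (blue), with exact 95% counting intervals. Open triangles stand at the level of 3 counts where a class had 0 UMIs. Ptn spans from 0.033 CPM in PyMT-M tumor cells to 281 CPM in PyMT-M lymphatic cells, and Mdk passes 40 CPM in no class but fibroblasts.

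Among the receptors, Sdc3 was the syndecan of blood endothelial cells in both libraries. It had 281 UMIs in 199 of 588 PyMT-M cells, 85.2 CPM (75.5 to 95.8), and 1651 UMIs in 727 of 1065 PyMT-N cells, 111 CPM (105 to 116). It made up 79.2% (74.6 to 83.3%) of syndecan UMIs in PyMT-M and 82.7% (80.9 to 84.3%) in PyMT-N. The log2 ratio was -0.38 (-0.57 to -0.19), rank 1410 from the lowest of 8544 genes, under 2-fold. Unlike Ptn, Sdc3 was spread over many cells, with 68.3% of PyMT-N and 33.8% of PyMT-M cells holding a UMI, and at most 14 and 5 UMIs per cell. At 5000 UMIs per cell the shares were 40.2% (37.2 to 43.3%) and 27.1% (22.2 to 32.5%).

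The order of Sdc3 levels in PyMT-N was blood endothelial, lymphatic at 69.5 CPM (60.1 to 79.9), Ptprc+ at 37.3 CPM (31.8 to 43.5), tumor at 24.5 CPM and fibroblast at 22.2 CPM (15.4 to 31.0), with the last pair overlapping. In PyMT-M it was lymphatic at 112 CPM (53.9 to 207), blood endothelial, Ptprc+ at 34.4 CPM (27.6 to 42.3), fibroblast at 29.8 CPM (17.0 to 48.4) and tumor at 0.281 CPM, and the first pair and the second pair overlapped. Outside tumor cells the Sdc3 log2 ratio was under 2-fold in every class as defined, at 0.69 (-0.39 to 1.60) in lymphatic cells, 0.42 (-0.53 to 1.32) in fibroblasts and -0.12 (-0.51 to 0.26) in Ptprc+ cells. With at most 1 keratin or Rhox5 UMI it passed 2-fold, at 1.16 (0.051 to 2.23) in fibroblasts and 1.15 (0.73 to 1.57) in Ptprc+ cells, and in fibroblasts with at least 10000 CPM of Col3a1 it was 1.63 (0.43 to 2.83). In cells with at least 3 Ptprc UMIs it was 0.70 (0.24 to 1.15), under 2-fold. The low-keratin Ptprc+ cells of PyMT-N included the 56 that were also blood endothelial, which held 61 Sdc3 UMIs. In Ptprc+ cells of 1 class only, Sdc3 was at 56.9 CPM in PyMT-M and 31.1 CPM in PyMT-N, under 2-fold. In tumor cells 34 UMIs in 32 of 4902 PyMT-M cells stood against 1848 in 1036 of 3306 PyMT-N cells, a log2 ratio of -6.44 (-6.98 to -5.95). Ptn and Sdc3 were the members with the most negative ratios in tumor cells. In tumor cells 22.3% of 12553 ranked genes were over 2-fold lower in PyMT-M and 19.7% over 2-fold higher, with a median of -0.039, so a 2-fold difference was common there.

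Sdc3 was found in cells with and without Ptn. In PyMT-N, Sdc3 was at 124 CPM in the 362 cells with a Ptn UMI and 104 CPM in the 703 without, found in 70.7% and 67.0% of them. In PyMT-M it was at 86.2 CPM in the 17 cells with a Ptn UMI, from 8 UMIs, and 85.2 CPM in the others.

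Sdc2 was the syndecan that differed most between the tumor cells in number of UMIs. It had 8827 UMIs in PyMT-M, 73.0 CPM, and 40036 in PyMT-N, 529.9 CPM, 7.26-fold higher with a log2 ratio of -2.86 (-2.89 to -2.83). It was found in 73.9% and 99.2% of tumor cells. Fibroblasts were at 147 CPM (116 to 183) in PyMT-M and 261 CPM (236 to 288) in PyMT-N. Their log2 ratio of -0.83 (-1.20 to -0.48) was -0.016 in the cells with at most 1 keratin or Rhox5 UMI. Blood endothelial cells held 19 and 87 UMIs, 5.76 and 5.84 CPM, with a log2 ratio of -0.018 (-0.82 to 0.71). In the classes as defined, the order of levels ran tumor, fibroblast, Ptprc+, lymphatic and blood endothelial in PyMT-N, with no overlap of intervals. In PyMT-M it ran fibroblast, tumor, Ptprc+, lymphatic and blood endothelial, where the lymphatic level came from 1 UMI. Both orders changed with at most 1 keratin or Rhox5 UMI. There PyMT-N Ptprc+ cells were at 5.41 CPM, under lymphatic cells at 11.7 CPM. The PyMT-M Ptprc+ and lymphatic cells held 0 Sdc2 UMIs.

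Sdc1, the epithelial syndecan, was high in tumor cells and fibroblasts of both libraries. Tumor cells were at 194 CPM (191 to 196) in PyMT-M and 327 CPM (323 to 331) in PyMT-N, in 95.3% and 94.3% of cells, a log2 ratio of -0.76 (-0.78 to -0.73), under 2-fold. At least 3 UMIs over the cycling markers Mki67, Top2a, Cenpf and Birc5 were held by 3808 PyMT-M and 162 PyMT-N tumor cells. In these Sdc1 was at 192 and 192 CPM, and in the other tumor cells at 200 and 339 CPM. The part of cycling in the difference was not tested. Fibroblasts were at 223 CPM (185 to 267) and 279 CPM (253 to 307), a log2 ratio of -0.32 (-0.62 to -0.025). It was -0.95 (-1.44 to -0.49) in fibroblasts with at most 1 keratin or Rhox5 UMI, where the PyMT-M level was 137 CPM, and -1.07 (-1.65 to -0.53) in those with at least 10000 CPM of Col3a1. The intervals of fibroblasts and tumor cells overlapped in PyMT-M but not in PyMT-N. Blood endothelial cells were lowest, at 10.6 CPM (35 UMIs) and 7.31 CPM (109 UMIs), a log2 ratio of 0.54 (-0.055 to 1.10).

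Sdc4, the focal adhesion syndecan, was higher in PyMT-M tumor cells. They were at 277 CPM (274 to 280) against 167 CPM (164 to 170) in PyMT-N, in 96.6% and 80.0% of cells, a log2 ratio of 0.73 (0.70 to 0.76). In tumor cells with cycling markers Sdc4 was at 276 CPM in PyMT-M and 258 CPM in PyMT-N. The other tumor cells were at 281 and 159 CPM. The part of cycling in the difference was not tested. Over all tumor cells Sdc4 alone of the syndecans had a ratio above 0. Levels in fibroblasts were 98.6 CPM (73.9 to 129) and 72.5 CPM (59.6 to 87.3), with a log2 ratio of 0.44 (-0.056 to 0.93), which was 1.43 (0.53 to 2.32) with at least 10000 CPM of Col3a1. With at most 1 keratin or Rhox5 UMI the fibroblast ratio was 0.60 (-0.15 to 1.32), an interval that includes 0. In blood endothelial cells Sdc4 had 20 UMIs in 17 PyMT-M cells, 6.07 CPM, and 150 UMIs in 70 PyMT-N cells, 10.1 CPM, a log2 ratio of -0.73 (-1.48 to -0.052).

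That blood endothelial difference depended on the cells that also had a Ptprc UMI. In PyMT-N, 108 of the 150 Sdc4 UMIs (72.0%) lay in 39 of the 56 such cells, at 89.4 CPM, and the 1007 cells in 1 class only were at 3.07 CPM. In PyMT-M 580 cells were in 1 class only, at 5.55 CPM. The log2 ratio without cells of more than 1 class was 0.85 (-0.031 to 1.68), an interval that includes 0. The same 56 cells held 1.28% of the Ptn and 3.69% of the Sdc3 UMIs of their class. The immune list (Cd68, Lyz2, Csf1r, Adgre1, Cd3e, Cd3d, S100a8 and Cd79a) summed to 29.1 CPM in PyMT-M, with Adgre1 at 0, and 221 CPM in PyMT-N blood endothelial cells, with none at 0.

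**Figure D3:**
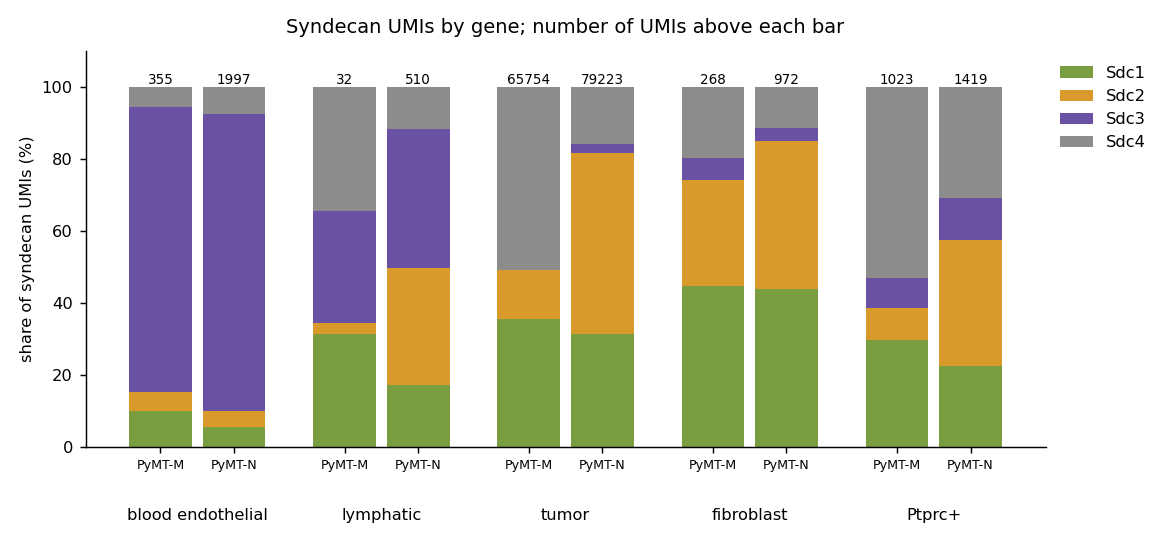
Share of the UMIs of all 4 syndecans held by each (percent, vertical axis) in every cell class of each library, with the number of UMIs above the bar. Sdc3 takes 79.2% and 82.7% in blood endothelial cells. In tumor cells Sdc4 leads in PyMT-M and Sdc2 in PyMT-N.

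The syndecan with most UMIs in tumor cells was Sdc4 in PyMT-M, at 50.9% (50.6 to 51.3%) of syndecan UMIs, and Sdc2 in PyMT-N, at 50.5% (50.2 to 50.9%). Sdc2 held 13.4% in PyMT-M and Sdc4 15.9% in PyMT-N. The 4 genes together were at 544 CPM and 1049 CPM in tumor cells, against 108 and 134 CPM in blood endothelial cells. In fibroblasts Sdc1 held 44.8% (38.7 to 50.9%) and 43.9% (40.8 to 47.1%), the most in each library. In PyMT-M that order turned in the 46 fibroblasts with at most 1 keratin or Rhox5 UMI, where Sdc2 had 62 UMIs and Sdc1 had 45, and in the 45 that met no other rule, with 59 and 43.

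Several syndecan levels in the smaller classes were lower once cells with keratin were left out. In Ptprc+ cells Sdc1 was at 118 CPM (303 UMIs) in PyMT-M and 72.4 CPM (320 UMIs) in PyMT-N, Sdc2 at 35.1 and 112 CPM, Sdc3 at 34.4 and 37.3 CPM and Sdc4 at 212 and 99.3 CPM. In this class 7.28% of 5630 ranked genes were over 2-fold higher in PyMT-M, as Sdc4 was, and 10.3% over 2-fold lower, as Sdc2 was, with a median of -0.074. Krt8, Krt18 and Rhox5 summed to 548 CPM in PyMT-M Ptprc+ cells, 58.5% of their tumor level, and 389 CPM in PyMT-N, 21.3% of it, and of the 10 epithelial markers 7 and 3 were at 0. In the 425 and 316 cells with at most 1 such UMI, Sdc1 was at 19.0 and 11.8 CPM, Sdc2 at 0 and 5.41 CPM and Sdc3 at 85.5 and 38.5 CPM. Sdc3 kept 81 of its 88 PyMT-M and 121 of its 165 PyMT-N UMIs there. Sdc4 kept 90 of 542 and 250 of 439, and Sdc1 kept 18 of 303 and 37 of 320. The log2 ratio of Sdc4 was 1.09 (0.91 to 1.28) in the whole class and 0.25 (-0.11 to 0.61) in the low-keratin cells, where it was no longer past 2-fold. That of Sdc1 was 0.71 (0.48 to 0.94), and 1.47 (1.12 to 1.83) in cells with at least 3 Ptprc UMIs. In the low-keratin cells the Sdc1 ratio was 0.69 (-0.21 to 1.54), an interval that includes 0.

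In lymphatic cells Sdc4 was at 124 CPM (11 UMIs) in PyMT-M and 21.2 CPM (60 UMIs) in PyMT-N, with 2.55 (1.47 to 3.49) as the log2 ratio. Sdc1 was at 112 CPM (10 UMIs) and 31.0 CPM (88 UMIs), a log2 ratio of 1.86 (0.75 to 2.80). In low-keratin lymphatic cells Sdc1 held 4 and 41 UMIs, 55.4 and 16.6 CPM, with an interval of the log2 ratio from -0.20 to 3.21 that includes 0. Sdc2 had 1 UMI in PyMT-M and 165 in PyMT-N, at 58.2 CPM, which was 11.7 CPM in the 194 of 207 cells with low keratin. With 20 PyMT-M cells, ratios in lymphatic cells rest on few UMIs.

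In blood endothelial cells the low syndecans were set beside tumor transcripts too. Sdc1, Sdc2 and Sdc4 stood at 5.48%, 7.89% and 2.19% of their tumor levels in PyMT-M and at 2.24%, 1.10% and 6.02% in PyMT-N. The epithelial list outside the rule stood at 8.79% of its tumor level in PyMT-M (64 UMIs, with Krt7, Krt19, Krt14, Cdh1 and Esrp1 at 0) and 5.25% in PyMT-N (27 UMIs, with Krt7, Krt19, Krt14 and Cldn3 at 0). The part of tumor transcripts in these 3 low levels was not tested. Ptn and Sdc3 were above their tumor level in both libraries, Sdc3 303-fold in PyMT-M and 4.53-fold in PyMT-N.

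**Figure D4:**
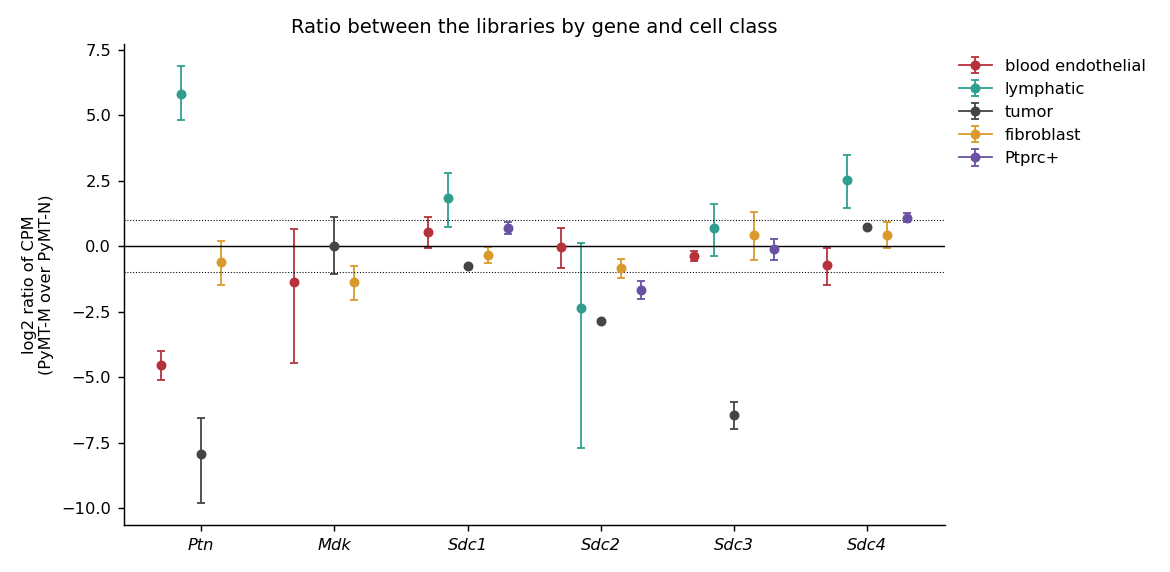
Log2 ratio of CPM, PyMT-M over PyMT-N, of each gene by cell class (colours), with exact 95% counting intervals and dotted lines at 2-fold. Classes with 0 UMIs in a library are left out. Ptn is at -4.54 in blood endothelial cells, -7.92 in tumor cells and 5.83 in lymphatic cells, and Sdc3 departs from the 2-fold band in tumor cells.

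Blood endothelial cells were also split by markers, each group being the cells with at least 3 UMIs over its list, so that groups overlap. Cells in a group had a higher median depth than the other cells, except for the PyMT-M arterial (4229 against 5312 UMIs) and venous groups (5171 against 5279). In PyMT-N, Ptn was at 249 CPM in the 601 cells with tip markers (Esm1, Apln, Angpt2, Kcne3) and 130 CPM in the rest. It was at 220 CPM in the 949 cells with venous markers (Ackr1, Selp, Lrg1, Vwf) and 81.1 CPM in the rest, and at 219 CPM in the 883 cells with capillary markers (Gpihbp1, Cd300lg, Car4, Cd36, Timp4) and 125 CPM in the rest. With arterial markers (Gja4, Gja5, Sema3g, Hey1, Bmx) it was at 178 CPM against 209.8 CPM, and cycling and interferon markers made less difference, at 207 against 203 CPM and 215 against 201 CPM. Ptn was therefore high in every marker group of PyMT-N. In PyMT-M, where all Ptn UMIs lay in 17 of 588 cells, the Ptn level was instead lower with tip or capillary markers than in the rest. The log2 ratio of group over rest was -2.18 (-3.65 to -0.90) for tip markers, from 7 and 22 UMIs. For capillary markers it was -2.38 (-3.55 to -1.23), from 14 and 15 UMIs. With venous markers PyMT-M went the same way as PyMT-N, at 2.18 (0.94 to 3.56), from 21 and 8 UMIs. Cells with a Ptn UMI were 1.74% of the 288 PyMT-M cells with tip markers and 4% of the 300 others. They were 1.95% of 462 and 6.35% of 126 for capillary markers, and 5.58% of 215 and 1.34% of 373 for venous markers. With so few cells the counting intervals are too narrow, and no difference between these shares was tested. The PyMT-M intervals for arterial, cycling and interferon markers included 0. Between the libraries the log2 ratio of Ptn was lowest in cells with tip markers, at -6.11 (-7.43 to -5.07), from 7 and 2303 UMIs. It was highest in cells with venous markers, at -3.66 (-4.36 to -3.05), from 21 and 2905 UMIs. Ptn was over 2-fold lower in PyMT-M in all 6 groups. The venous group held 215 of 588 PyMT-M and 949 of 1065 PyMT-N cells, under the same limit of 3 UMIs at unequal depth. Its ratios therefore set most PyMT-N cells against a minority of PyMT-M cells. The venous list includes Vwf, also one of the endothelial markers above, which the paper reports as higher in PyMT-N endothelial cells. The group is thus named by its list and does not mark a venous subtype. By its own subclusters the paper reports venous cells as enriched in PyMT-M.

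Sdc3 was lower in cells with cycling markers (Mki67, Top2a, Cenpf, Birc5) in both libraries, at 54.6 CPM against 95.7 CPM outside in PyMT-M and 60.6 against 119.8 CPM in PyMT-N. It was higher in cells with arterial markers, at 131 against 81.4 CPM and 138 against 105 CPM, and with interferon markers (Cxcl9, Cxcl10, Rsad2, Ifit1), at 103 against 72.6 CPM and 138 against 102 CPM. With tip markers it was at 102 against 61.5 CPM in PyMT-M and 116 against 103 CPM in PyMT-N. Capillary markers went with a higher level too, at 88.8 against 67.7 CPM in PyMT-M and 119 against 64.6 CPM in PyMT-N. The PyMT-M interval of that log2 ratio included 0. With venous markers the direction differed, at 66.1 against 96.3 CPM in PyMT-M and 117 against 63.8 CPM in PyMT-N. The log2 ratio of Sdc3 between libraries ranged from -0.82 (-1.16 to -0.50) in cells with venous markers to -0.073 (-0.63 to 0.44) in those with arterial markers.

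**Figure D5:**
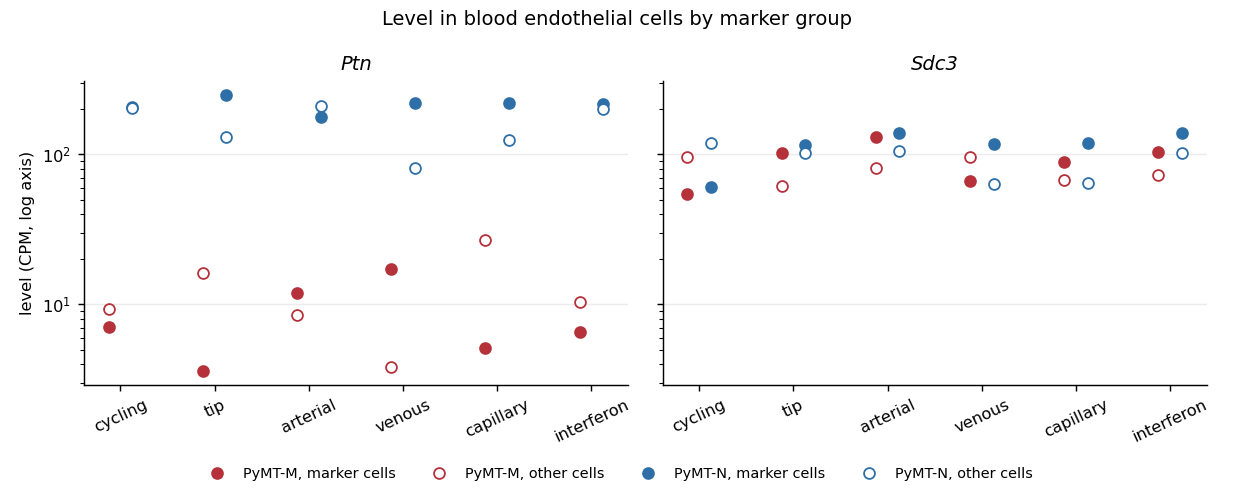
Level of Ptn and Sdc3 (CPM, log axis) in blood endothelial cells with at least 3 UMIs of a marker group (filled) and in the other blood endothelial cells (open), in PyMT-M (red) and PyMT-N (blue). Ptn in PyMT-N lies between 81.1 and 249 CPM throughout, above every PyMT-M point, and Sdc3 is lower in cycling cells of both libraries.

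The wider pathway was followed through 49 genes for other receptors, other proteoglycans, synthesis and removal of heparan sulfate, syndecan shedding and tail partners. In blood endothelial cells 31 were ranked, of which 0 were over 2-fold higher and 1 over 2-fold lower in PyMT-M, beside 2.55% and 4.18% of all ranked genes, with a median log2 ratio of -0.054. The highest were Cd44, a hyaluronan receptor, at 21.5 and 11.5 CPM (0.90), Tgfbr3, a proteoglycan co-receptor of TGF-beta, at 101 and 64.6 CPM (0.65), and Itga6, a laminin receptor chain, at 559 and 387 CPM (0.53). The lowest were Itga4, an integrin chain of leukocytes, at 5.16 and 14.0 CPM (-1.44), Gpc4, a glypican, at 18.8 and 32.0 CPM (-0.77), and Mmp14, a membrane protease that sheds syndecans, at 199.6 CPM and 335 CPM (-0.75). Of the 208 PyMT-N UMIs of Itga4, 207 lay in the 56 cells with a Ptprc UMI. Ptprz1 and Alk, receptors of both ligands, held 1 UMI between them in blood endothelial cells, an Alk UMI of PyMT-M. Nucleolin (Ncl) and Nrp1, other proteins reported to bind pleiotrophin or midkine, were at 493 and 342 CPM and at 365 and 463 CPM.

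By group, 7 of 11 other receptors, 4 of 7 other proteoglycans, 11 of 16 synthesis genes, 4 of 6 shedding genes and 5 of 6 tail partners were ranked in blood endothelial cells, and 0 of 3 removal genes. Sdcbp, which encodes syntenin, the scaffold that binds the syndecan end shown above, was at 324 and 377 CPM (-0.22). In tumor cells 42 of the 49 were ranked, 4 over 2-fold higher and 20 over 2-fold lower in PyMT-M, with a median of -0.97, where 19.7% of all ranked tumor-cell genes were higher and 22.3% lower, with a median of -0.039. All 6 shedding genes were ranked there, with 5 over 2-fold lower, and 13 synthesis genes, with 4 lower and 1 higher. Ext1, a heparan sulfate polymerase, was at 58.7 CPM in PyMT-M and 665 CPM in PyMT-N tumor cells, against 687 and 993 CPM in blood endothelial cells.

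The genes most like each member were ranked by Pearson correlation of log2(CPM + 1) over the 10 levels of 5 classes in both libraries, among 6682 genes reaching 50 CPM in a level. The 10 points share libraries and cells, so these are descriptions. Robo1, an axon guidance receptor, was most like Ptn (r = 0.95), followed by Txlna (0.89) and Furin (0.89). Pth1r, a parathyroid hormone receptor, was most like Mdk (0.99), Bmpr1a most like Sdc1 (0.997), Smim3 most like Sdc2 (0.96), H2-Q4 most like Sdc3 (0.97) and Igf2bp2 most like Sdc4 (0.97). The next genes were Dpp6 and Cpxm2 for Mdk, Ddr2 and Gpc1 for Sdc1, Med13l and Nr2f1 for Sdc2, Arl6ip1 and Marchf3 for Sdc3, and Ank3 and Kcnn4 for Sdc4. H2-Q4 belongs to a family of near-identical genes, whose reads the counting could have split.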

How the data were processed

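UMI counts per gene and cell barcode were deposited by the authors as whole numbers from Cell Ranger 8.0.0, without normalization. The submitters' processing notes name mm39 as the genome build, and no source used here names the annotation. For digestion, the sample protocol lists collagenase I, the paper collagenase II with dispase II. Python 3.11.15, numpy 2.4.6, scipy 1.17.1 and pandas 2.3.3 were used. Counts were summed over the cells of a class and divided by the class total (CPM), with exact Poisson intervals, exact conditional intervals for ratios of counts and Clopper-Pearson intervals for shares. The script for ratio intervals was checked on simulated counts. Doublets were left in. Genes with 0 UMIs were set against 3 counts over the class. Genes that reached 200 UMIs in the libraries combined were ranked, and those past 2-fold counted. Genes named are the 6 members, the 3 highest and 3 lowest pathway genes in blood endothelial cells and the 3 genes most like each member. Ext1, Sdcbp, Ncl, Nrp1, Ptprz1 and Alk were named after their values were seen. The members, classes and lists were chosen with earlier results of these data known. Promoters of Ptn, Sdc1, Sdc3 and Sdc4 were matched in RefSeq by symbol. Alternatives covered cell filters, doublet scores (scanpy 1.11.5), class limits, scaling, the count minimum and depth.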

Additional observations from a re-analysis of the deposited data

Results flagged for a closer look

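The log2 ratio of Ptn (PyMT-M divided by PyMT-N) had opposite signs, at -4.54 in blood endothelial cells and 5.83 in lymphatic cells. The lymphatic value rested on 25 UMIs in 5 of 20 PyMT-M cells and 14 UMIs in 10 of 207 PyMT-N cells. The log2 ratio of Sdc4 was -0.73 in blood endothelial cells, 0.73 in tumor cells and 2.55 in lymphatic cells. The sign of the blood endothelial value depended on cells that also had a Ptprc UMI. With cells in 1 class only it was 0.85 (-0.031 to 1.68), an interval that includes 0. Neither difference between classes was tested, since there is 1 library per model.

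Cells that met none of the class rules, 724 in PyMT-M and 699 in PyMT-N, also held these transcripts above the level of 3 counts. Ptn was at 2.48 CPM in PyMT-M and 48.4 CPM in PyMT-N, and Mdk at 0.229 CPM in PyMT-N. Sdc1 was at 177 and 269.6 CPM, Sdc2 at 62.0 and 462 CPM, Sdc3 at 5.18 and 34.0 CPM and Sdc4 at 268 and 159.8 CPM. For Sdc1, Sdc2 and Sdc4 these levels lay near those of tumor cells, at 194 and 327, 73.0 and 529.9, and 277 and 167 CPM. The PyMT-N Ptn UMIs lay in 94 of the 699 cells, and the highest cell held 132. The unclassed cells were mixed. Endothelial markers summed to 275 CPM in PyMT-M and 705 CPM in PyMT-N, and Krt8, Krt18 and Rhox5 to 813 and 1481 CPM.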

How the results depend on the processing

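In blood endothelial cells the log2 ratio of Ptn stayed between -4.84 and -4.34 over 10 alternatives and that of Sdc3 between -0.78 and -0.20, with -0.78 in cells thinned to 5000 UMIs. The Sdc3 value of -0.20 (-0.42 to 0.028), an interval that includes 0, was without cells holding 2 or more UMIs of other cell types. The log2 ratio of Sdc4 changed sign, with intervals that include 0. It was 0.85 (-0.031 to 1.68) with cells in 1 class only and 1.03 (-0.28 to 2.35) without cells holding 2 or more UMIs of other cell types. The latter gave -0.18 for Sdc1 and -1.03 for Sdc2, and Sdc2 was at 0.74 without the 6% highest doublet scores and 0.82 in thinned cells. Genes past 2-fold numbered 1289 with a minimum of 50 UMIs, against 575. Of the log2 ratios in blood endothelial cells, 53 by setting stayed within the main interval, 5 moved out of it and 2 changed sign outside it. Of values elsewhere or for shares of cells 54 stayed within it and 23 moved. Among those that moved were tumor-cell ratios under another scaling. With mitochondrial, ribosomal protein and hemoglobin genes left out of the total, Sdc1 was at -0.55, Sdc2 at -2.66 and Sdc4 at 0.93. The mean of per-cell CPM gave -2.92 for Sdc2 and 0.88 for Sdc4 in tumor cells. The 3 other counts of genes past 2-fold were 680 near the median gene number, 443 with cells in 1 class only and 574 with the median set to 0. The limit of at most 1 keratin or Rhox5 UMI was chosen after seeing the data. No paired analysis was possible because each model has 1 library. Depth limits Mdk outside fibroblasts and every gene in the 20 PyMT-M lymphatic cells.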

Other observations

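Within PyMT-N blood endothelial cells, the genes most correlated with Ptn across 1065 cells, among 8932 found in at least 10% of them, were Slco2a1, a prostaglandin transporter (Pearson r = 0.40), Emid1 (0.34) and Flt1 (0.33), and the lowest was Prnd (-0.29). Flt1 is part of the rule that chose the cells. For Sdc3 the highest were Sema7a (0.33), Gm56999 (0.32) and Unc5b (0.32) in PyMT-N, and Nid2 (0.27), Trp53i11 (0.27) and Ifit2 (0.27) in 588 PyMT-M cells. These cells share a library and differ in depth, and the values are weak and descriptive.

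At the limit of the blood endothelial rule, the 27 PyMT-M and 21 PyMT-N cells with 5 or 6 endothelial UMIs held 0 Ptn UMIs, and the 47 and 61 cells with 3 or 4 held 7 and 0. Sdc3 was at 91.3 and 33.8 CPM just inside and 85.6 and 55.6 CPM just outside. Sdc4 in PyMT-N was at 116 CPM just inside and 62.4 CPM just outside.

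Fibroblasts of PyMT-M that met no other rule, 45 of 58, held 35.8% of the Sdc1 and 47.2% of the Sdc4 UMIs of their class but all 24 Mdk UMIs and 87.5% of the Ptn UMIs.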
